A study of Mus musculus with 2 samples.

Results

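The genes described here store, carry and sense iron in the brain: the ferritin subunits Fth1 and Ftl1, the carrier transferrin (Trf) and its receptor (Tfrc), the transporters Slc11a2 and Slc40a1, the ferroxidase ceruloplasmin (Cp), and the iron regulatory proteins Aco1 and Ireb2. They were taken by symbol, and all 9 were found among the 55536 annotated genes of the tables. The tissue was left cerebral cortex of B6CASTF1/J mice, an F1 cross between the strains C57BL/6J and CAST/EiJ, all female and aged 2 months. Each of 2 replicates gave 1 total RNA library, made with 300 ng of input and ERCC spike-ins, which are synthetic control RNAs. The labels name no treatment, mutation or transgene, and they give both tissue samples 1 donor entry, so the spread between the replicates may be technical. With 1 group there was no comparison between conditions: the data gave the level of each gene, its transcripts and the difference between the 2 libraries, with no p-value.

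A cell takes up transferrin-bound iron through the transferrin receptor, Slc11a2 moves the iron out of the endosome into the cytosol, ferritin shells store it, and Slc40a1 (ferroportin), helped by ferroxidases such as ceruloplasmin, exports it. When iron is scarce, Aco1 (IRP1) and Ireb2 (IRP2) bind a small hairpin, the iron-responsive element. In the 5′ UTR the bound hairpin blocks translation, as in the ferritin and ferroportin messages, and in the 3′ UTR it protects the message, as in the transferrin receptor message. In the brain, oligodendrocytes are known as the main source of transferrin and as iron-rich cells, astrocytes make a membrane-bound ceruloplasmin, and iron is needed for myelin, mitochondria and transmitter synthesis.

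The hairpins are shown first because the transcripts that carry them are followed below. The annotated transcripts were searched on their own strand for the pattern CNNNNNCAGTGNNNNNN, in which the last 5 bases had to pair with the 5 bases after the first C, by Watson-Crick or G-U pairs. Of the 9 genes, 4 held at least 1 element with all 5 stem pairs, against 369 of 21951 protein-coding genes (1.68%). With 4 of the 5 pairs, Slc11a2 joined them, and the share of coding genes was 13.0%. The pattern is that of the element known from these same messages, so their matches were given in advance. The shares of coding genes are therefore background and no test of enrichment. A match is a description of the letters and not evidence of binding. Each element is printed 5′ to 3′ as 29 DNA letters from the GENCODE M21 transcripts, with the 6 bases of the loop in capitals. The 4 Tfrc elements are numbered from 5′ to 3′.
Fth1: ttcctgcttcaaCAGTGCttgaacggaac
Ftl1: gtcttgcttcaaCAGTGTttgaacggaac
Slc40a1: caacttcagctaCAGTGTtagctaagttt
Tfrc element 1: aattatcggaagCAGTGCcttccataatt
Tfrc element 2: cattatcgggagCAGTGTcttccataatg
Tfrc element 3: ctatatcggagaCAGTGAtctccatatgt
Tfrc element 4: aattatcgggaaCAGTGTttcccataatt
Slc11a2: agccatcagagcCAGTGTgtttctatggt

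In mm10 coordinates the Fth1 element lies at chr19:9982732-9982760 on the plus strand, in the 5′ UTR, and ends 109 bases before the start codon of transcript Fth1-201. The Ftl1 element lies at chr7:45459779-45459807 on the minus strand, 147 bases before the start codon of Ftl1-201. The Slc40a1 element lies at chr1:45925465-45925493 on the minus strand, 201 bases before the start codon of Slc40a1-201. The 4 Tfrc elements start at positions 32631219, 32631598, 32631663 and 32631710 of chromosome 16 on the plus strand, all in the 3′ UTR of Tfrc-201, the first of them 882 bases after the stop codon. The Slc11a2 element, at chr15:100395153-100395181 on the minus strand, begins 31 bases after the stop codon of Slc11a2-205. The Fth1 and Ftl1 elements shared 26 of 29 bases. The 4 Tfrc elements shared 18 to 25 bases in their 6 pairings, and the Fth1 element shared 9 to 11 bases with them.

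The heavy ferritin subunit far exceeded every other gene of the group. Levels are in TPM, a length-corrected measure of a transcript's share of the RNA, taken here from the alignment-based gene tables. Fth1, which carries the ferroxidase centre that oxidizes iron on its way into the shell, had 981 TPM in replicate 1 and 1001 TPM in replicate 2 (mean 991 ± 13.9, SD, n = 2). It ranked 8 among 22015 nuclear protein-coding genes and took 79.8% of the summed TPM of the 9 genes in replicate 1 and 80.6% in replicate 2. Ftl1, the light subunit that helps mineralize the iron core, had 88.6 and 88.8 TPM in replicates 1 and 2 (mean 88.7 ± 0.134), rank 1056. The 2 libraries differed by little for both subunits beside the gap between the subunits.

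The Fth1 level was 11.1 times that of Ftl1 in replicate 1 and 11.3 times in replicate 2 (mean 11.2 ± 0.140). This ratio rests on how reads were divided between Ftl1 and its copies. Ftl1-ps1, a retrocopy on chromosome 13 that the annotation calls protein coding, matches Ftl1 at 99.6% of 910 aligned bases. It received 1270 expected counts in replicate 1 and 1269.5 in replicate 2 (74.1 and 69.1 TPM), against 1531 and 1669 expected counts for Ftl1. Ftl2-ps, a processed pseudogene on chromosome 4, received 97.97 and 65.2 expected counts in replicates 1 and 2. Ftl1 therefore held 52.8% of the summed counts of the family in replicate 1 and 55.6% in replicate 2, and reads of such near-identical genes cannot be assigned with certainty. With the copies added, the light chain reached 173 TPM in replicate 1 and 165 TPM in replicate 2, and the Fth1 ratio was 5.66 and 6.08 (mean 5.87 ± 0.298). Transcript Ftl1-ps1-202 carries the same 29-base element as Ftl1, at chr13:74406428-74406456. In the read-based tables the ratio was 11.3 ± 0.276 without the copies and 4.43 ± 0.0173 with them. There Ftl1-ps1-201, a model of 491 bases without the element, received 399 estimated counts in replicate 1 and 469 in replicate 2, against 0 expected counts in the alignment-based tables. No copy of Fth1 was as close; Gm6977, at 95.6% identity over 274 bases, received 14.6 expected counts in replicate 1 and 11.8 in replicate 2.

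**Figure D1:**
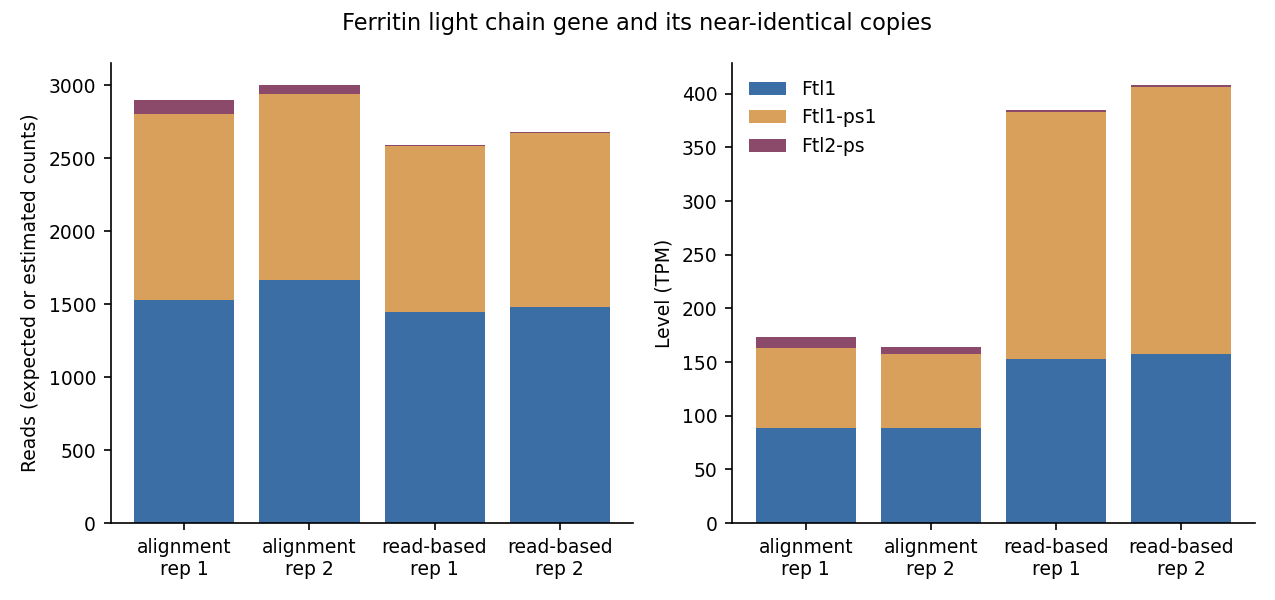
Reads (left axis, expected or estimated counts) and level (right axis, TPM) of Ftl1, Ftl1-ps1 and Ftl2-ps, stacked, in the alignment-based and read-based tables of both libraries. Ftl1 takes between 52.8% and 55.8% of the family's reads in all 4 columns, and 38.5% of its TPM in replicate 2 of the read-based table.

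Transferrin and its receptor stood next to ferritin in the alignment-based order, while in the read-based order Slc11a2 stood between them. Trf, which binds ferric iron in extracellular fluid, had 57.1 TPM in replicate 1 and 57.6 TPM in replicate 2 (mean 57.3 ± 0.354). Tfrc, the receptor that brings it into the cell, had 31.5 TPM in replicate 1 and 29.2 TPM in replicate 2 (mean 30.3 ± 1.60). The Trf level was 1.81 times that of Tfrc in replicate 1 and 1.97 times in replicate 2. A coding gene on the same strand, Gm20425 (chr9:103190208-103230307), overlaps Trf (chr9:103204001-103230444), so it is no separate copy elsewhere in the genome. Gm20425 shares 1517 aligned bases with Trf at full identity and received 191 expected counts in replicate 1 and 322 in replicate 2. Trf itself received 1927 and 2083, so Trf held 91.0% of the shared sum in replicate 1 and 86.6% in replicate 2.

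The importer Slc11a2 had a higher level than the exporter Slc40a1. Slc11a2 (DMT1) had 26.55 TPM in replicate 1 and 25.7 TPM in replicate 2 (mean 26.1 ± 0.622). Slc40a1, the exporter, was the lowest of the 9 genes with 2.79 TPM in replicate 1 and 2.99 TPM in replicate 2 (mean 2.89 ± 0.141), on 157 and 205 expected counts. Slc11a2 exceeded Slc40a1 9.52 times in replicate 1 and 8.59 times in replicate 2. By read-based TPM the ratios were 16.4 and 12.2 in replicates 1 and 2. Complete coding models held 44.6% ± 0.277 of the Slc11a2 TPM, against 77.4% ± 4.11 for Slc40a1. By read-based TPM these shares were 31.9% ± 0.167 and 77.1% ± 5.01. The size of the ratio therefore includes short and incomplete models of Slc11a2. Ceruloplasmin, the copper enzyme that oxidizes ferrous iron at the cell surface or in plasma, had 6.60 TPM in replicate 1 and 5.15 TPM in replicate 2 (mean 5.88 ± 1.03). Its SD was 17.5% of the mean in the alignment-based tables, against 0.151% to 6.13% for the other 8 genes. This did not hold by read-based TPM, where Cp had 10.8 ± 0.587. There the SD was a larger part of the mean for Slc40a1 (4.06 ± 0.833) and Aco1 (19.8 ± 2.97). Hps3 lies over part of Cp on the opposite strand, with 7.05 TPM in replicate 1 and 7.31 TPM in replicate 2. How the counting used strand is not given in the sources used here, so reads in the overlap are uncertain.

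Of the iron regulatory proteins, Ireb2 had the higher level. Ireb2, which is controlled by its breakdown in iron-replete cells, had 22.4 TPM in replicate 1 and 20.5 TPM in replicate 2 (mean 21.5 ± 1.32). Aco1, which serves as a cytosolic aconitase while it holds an iron-sulfur cluster, had 12.3 TPM in replicate 1 and 11.5 TPM in replicate 2 (mean 11.9 ± 0.573). The Aco1 to Ireb2 ratio was 0.549 in replicate 1 and 0.559 in replicate 2 (mean 0.554 ± 0.00727). By read-based TPM it was 0.686 and 0.587 in replicates 1 and 2. There the Aco1 level of replicate 1 includes 4.17 TPM of Aco1-203, a processed transcript of 410 bases, on 7.24 estimated counts. In replicate 2 that transcript had 0. The gene with the lower level stayed Aco1 in both libraries of both tables.

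**Figure D2:**
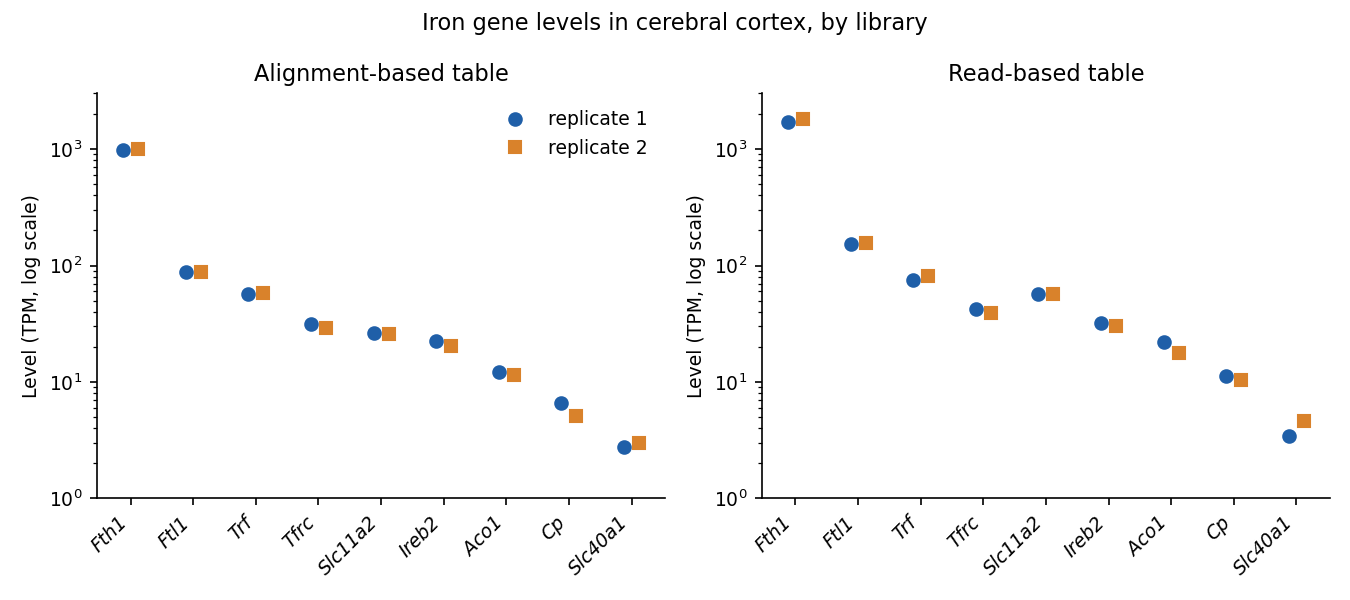
Level of each gene (TPM, log axis) in replicate 1 (circles) and replicate 2 (squares), in the alignment-based table (left) and the read-based table (right), in the same gene order. Fth1 stands at 991 TPM on average in the left panel and Slc40a1 at 2.89 TPM, and Slc11a2 lies above Tfrc in the right panel only.

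The 9 genes spanned a 343-fold range of mean level, and 7 of them reached 10 TPM in both libraries. The median of 12945 coding genes detected at 1 TPM or more in both libraries was 16.05 TPM. Aco1, Cp and Slc40a1 lay below that median, and the other 6 genes lay above it. In order from high to low the genes were Fth1, Ftl1, Trf, Tfrc, Slc11a2, Ireb2, Aco1, Cp and Slc40a1. The ranges of the 2 libraries overlapped for none of the 8 pairs of neighbours in this order, and the closest pair was Tfrc and Slc11a2, with means 1.16 times apart. In the read-based tables that pair changed places, at 56.8 ± 0.139 TPM for Slc11a2 and 40.9 ± 2.63 TPM for Tfrc, while the other 7 genes kept theirs. Most of the Slc11a2 TPM lay outside complete coding models in both kinds of table, so its place in either order rests partly on those other models. The read-based levels were higher throughout, 1756 ± 82.4 TPM for Fth1 and 4.06 ± 0.833 TPM for Slc40a1. Nuclear coding genes held 46.7% of the TPM in replicate 1 and 44.1% in replicate 2 of the alignment-based tables, while in read-based tables they held 76.5% and 75.5% in replicates 1 and 2. Rescaled over those genes, Fth1 had 2185 ± 118 TPM in the alignment-based and 2310 ± 130 TPM in the read-based tables.

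The 2 libraries differed little for these genes. The replicate ratio is the log2 ratio of replicate 1 over replicate 2 from expected counts scaled by TMM, with an exact Clopper-Pearson 95% interval that covers counting error only. The interval lay wholly beyond 2-fold for 0 of the 9 genes, against 0.307% of the 18562 genes tested, those averaging at least 10 counts. It lay wholly on 1 side of equality, which is what higher or lower means between the replicates here, for 6 of 9, against 15.1% of all genes tested. By direction, 2 of 9 were higher in replicate 1 (6.91% of all genes tested) and 4 of 9 higher in replicate 2 (8.17%). High counts make narrow intervals, and the sizes were small: the median size of the log2 ratio was 0.10 for the 9 genes and 0.09 for all genes tested. The common biological coefficient of variation between the 2 libraries was 4.08% by edgeR.

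Both ferritin subunits and transferrin were slightly lower in replicate 1. Fth1 had 16358 expected counts in replicate 1 and 18146 in replicate 2, a log2 ratio of -0.13 (interval -0.16 to -0.10). The ratio was -0.10 for Ftl1 (interval -0.20 to -0.0024) and -0.09 for Trf (interval -0.18 to -0.0010), so both intervals ended close to equality. Scaled by total counts or by the upper quartile, both intervals held equality, and so did that of Ftl1 in the read-based tables (-0.01) or with its copies added (-0.03). Trf moved the other way in these last settings, with a log2 ratio of -0.12 (interval -0.21 to -0.03) in the read-based tables and -0.16 (interval -0.25 to -0.08) with the Gm20425 counts added. Slc40a1 had a log2 ratio of -0.36 (interval -0.67 to -0.06).

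Cp and Tfrc were higher in replicate 1. Cp had 429 expected counts in replicate 1 and 332 in replicate 2, a log2 ratio of 0.39 (interval 0.18 to 0.60), which was the largest of the 9 in size. Tfrc had 2360 expected counts in replicate 1 and 2126 in replicate 2, a log2 ratio of 0.17 (interval 0.09 to 0.26). For Slc11a2, Aco1 and Ireb2 the log2 ratios were -0.01, 0.04 and 0.06, and the intervals held equality, the widest of them reaching from -0.13 to 0.11 for Slc11a2 and from -0.10 to 0.18 for Aco1.

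**Figure D3:**
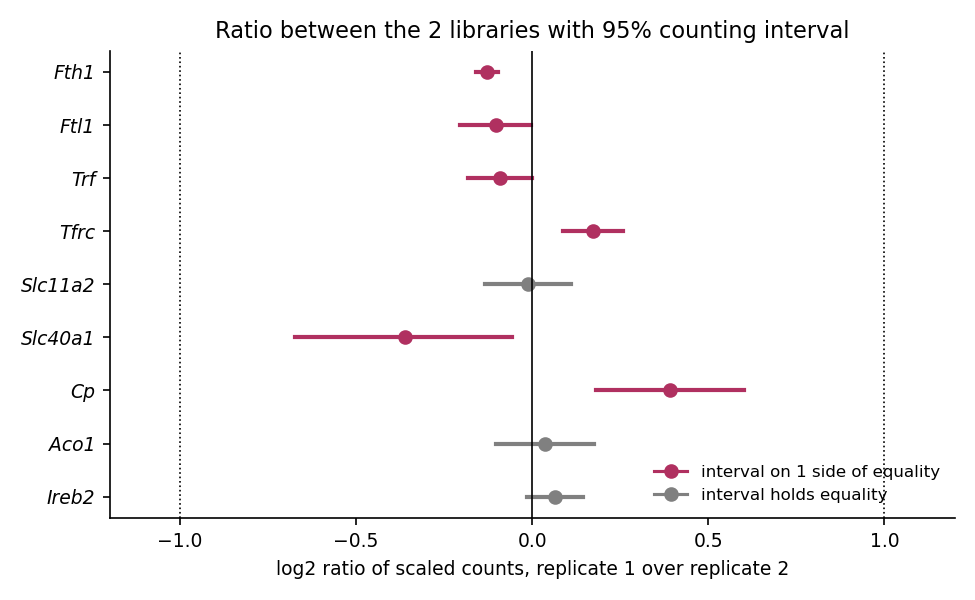
The log2 ratio of replicate 1 over replicate 2 for each gene (points) with its 95% counting interval (bars); dotted lines mark 2-fold. Cp at 0.39 and Slc40a1 at -0.36 lie farthest from equality, and no interval reaches a 2-fold difference.

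The cell type markers of the 2 libraries also differed slightly. All 8 neuronal markers were detected, led by Snap25 at 1327 ± 30.3 TPM and Slc17a7 at 550 ± 18.0 TPM. These markers were not chosen to tell cortex from other brain regions. Of 10 oligodendrocyte markers, 7 were on the higher side in replicate 2 (8.17% of all genes tested) and 0 in replicate 1 (6.91%). Their summed level was 749 TPM in replicate 1 and 802 TPM in replicate 2. Mbp led that list with a log2 ratio of -0.20, and Opalin, the lowest, had 3.27 TPM in replicate 1 and 2.43 TPM in replicate 2. These values stand beside the lower Trf and Fth1 counts of replicate 1; their part in those differences was not tested. In bulk tissue, fewer cells of a type and less RNA per cell cannot be told apart.

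Markers of tissue next to the cortex differed more. Of 9 choroid plexus markers, 7 averaged at least 10 counts. Of these, 3 were on the higher side in replicate 2 (8.17% of all genes tested) and 0 in replicate 1 (6.91%). The summed level of the 9 was 9.90 TPM in replicate 1 and 39.5 TPM in replicate 2. Most of that was Ttr, with 6.12 TPM in replicate 1 and 34.3 TPM in replicate 2, while Kl had 1.58 and 1.81 TPM and Kcne2, the lowest, 0.03 and 0.09 TPM in replicates 1 and 2. Besides Ttr, those on the higher side were F5, with 20 counts in replicate 1 and 51 in replicate 2, and Slc4a5, with 4 and 16. Kl was on neither side, and Kcne2 had too few counts. None of the 9 was at 0 in both libraries. Of 7 red blood cell markers, 5 averaged at least 10 counts. Of these, 3 globin genes were on the higher side in replicate 2 (8.17% of all genes tested) and 0 in replicate 1 (6.91%). The sums of the 7 were 345 TPM in replicate 1 and 438 TPM in replicate 2. Hba-a1 and Hbb-bs averaged 130 TPM each. Of 7 meningeal fibroblast markers, 4 were on the higher side in replicate 1 (6.91% of all genes tested) and 1 in replicate 2 (8.17%). Their sums were 90.2 TPM in replicate 1 and 66.6 TPM in replicate 2. That list was led by Igf2, with 47.5 TPM in replicate 1 and 28.8 TPM in replicate 2; Dcn had 9.03 and 10.7 TPM, and Lum, the lowest, 0.94 and 0.78 TPM. Cp and Tfrc were higher in replicate 1, as were those 4 fibroblast markers, while Dcn was lower there. Fth1, Ftl1, Trf and Slc40a1 were lower in replicate 1, as were those 3 plexus markers and 3 globin genes. The part of any of these markers in the ratios was not tested. Of 8 astrocyte markers 4 were on the higher side in replicate 2 (8.17% of all genes tested), and of 8 neuronal markers 2. Of 9 microglial markers 1 was, and of 8 endothelial markers 0. None of these 4 lists had a marker on the higher side in replicate 1, the direction of Cp and Tfrc.

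The annotation lists 70 transcripts of the 9 genes, and most genes were carried by 1 of them. Shares are of the gene's summed transcript TPM, mean ± SD over the 2 libraries, in the alignment-based transcript tables. Fth1-201 held 96.5% ± 1.27 of Fth1, Ireb2-201 94.7% ± 0.784 of Ireb2, Ftl1-201 92.0% ± 0.593 of Ftl1, Aco1-201 88.8% ± 0.778 of Aco1 and Slc40a1-201 77.4% ± 4.11 of Slc40a1. The leading transcript was the same in both libraries for 9 of 9 genes, and the same in both kinds of table for 7 of 9. In the read-based tables Fth1-203, a longer model with the same stop codon, took 11.3% ± 1.94 of Fth1, against 0.0041% in the alignment-based tables. Ftl1-206, a retained-intron model, took 12.7% ± 3.35 of Ftl1 in the read-based and 3.02% ± 3.18 in the alignment-based tables. For Slc40a1, the retained-intron models Slc40a1-208 and Slc40a1-202 took 7.08% ± 0.861 and 3.87% ± 4.46 in the alignment-based tables. Aco1-203, a processed transcript, took 19.1% of Aco1 in replicate 1 and 0% in replicate 2 of the read-based tables, and Ireb2-202, a retained-intron model, took 5.60% ± 0.224 of Ireb2 there.

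Short models took a large part of the TPM of Trf. Trf-201, the full coding model of 2571 bases, held 61.4% ± 0.129 of the TPM but 91.9% ± 0.224 of the expected counts. Trf-209, a retained-intron model of 433 bases, held 36.8% ± 1.54 of the TPM and 7.44% ± 0.314 of the expected counts. By read-based TPM, Trf-209 took 15.0% in replicate 1 and 2.84% in replicate 2, while Trf-201 kept 67.2% ± 0.134; Trf-205, a model marked for nonsense-mediated decay, took 1.25% in replicate 1 and 17.1% in replicate 2, and Trf-207, an end-incomplete model, 7.80% ± 0.280. A TPM share weighs a read in a short model more than one in a long model, so the Trf level of 57.3 TPM includes these.

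Slc11a2 was divided among many transcripts: all 8 held at least 5% in 1 or both kinds of table. Slc11a2-205, the model with the element, held 33.9% ± 0.935 of the TPM, and 73.3% ± 1.40 of the expected counts. End-incomplete models held 31.0% ± 3.65 of the TPM in the alignment-based tables and 62.9% ± 1.43 in the read-based ones. Slc11a2-207, an end-incomplete model of 389 bases, held 22.1% ± 5.70 in the alignment-based and 0% in the read-based tables. Slc11a2-208, of 387 bases, held 0% in the alignment-based and 30.0% ± 1.85 in the read-based tables, and Slc11a2-202, of 709 bases, 3.54% ± 5.01 and 26.2% ± 0.502. For these 3 short models the 2 kinds of table lay farther apart than the 2 libraries did. Slc11a2-204, Slc11a2-206 and Slc11a2-203 held 15.6% ± 4.83, 8.77% ± 0.903 and 5.40% ± 2.96 in the alignment-based tables.

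The annotation holds 2 complete coding models of Slc11a2, and they end at different stop codons. Slc11a2-205 ends its coding part at position 100395215 of chromosome 15 and carries the element after it; Slc11a2-201 ends at position 100389086 and carries none. Of the sum of these 2 models, Slc11a2-205 took 77.1% in replicate 1 and 74.8% in replicate 2 (76.0% ± 1.63); by read-based TPM it took 77.3% ± 2.05. This pair was chosen after its values were seen. The form with the element was thus the larger of the 2 in both libraries and both kinds of table.

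Ceruloplasmin was split between forms that end differently. A secreted and a membrane-anchored ceruloplasmin are known to arise by alternative splicing near the end of the message. The complete coding models end at 2 stop codons: Cp-202 and Cp-203 at position 19992523 of chromosome 3, and Cp-201, Cp-204 and Cp-205 at position 20005556. The models of the first stop took 50.2% in replicate 1 and 32.0% in replicate 2 of the complete coding TPM, and those of the second 49.8% and 68.0%. By read-based TPM the first stop took 60.3% in replicate 1 and 52.2% in replicate 2. By expected counts the second stop took 51.9% in replicate 1 and 68.8% in replicate 2. The stop with the larger share therefore changed with the table and measure, and by alignment-based TPM the stops were nearly even in replicate 1. Hps3, on the opposite strand, spans positions 19995945 to 20035315, so it covers the second stop and not the first. How the counting used strand is not given, so the split between the stops is uncertain. Of all Cp transcripts, Cp-201 held 30.7% ± 2.44 and Cp-202 23.3% ± 6.07 in the alignment-based tables. Of the smaller models Cp-204 held 7.09% ± 1.23, Cp-203 3.95% ± 5.58, Cp-208 7.33% ± 6.93, Cp-209 6.94% ± 5.42 and Cp-211 6.43% ± 0.514 there, and Cp-216 held 0% there and 14.1% ± 5.16 in the read-based tables. Retained-intron models together held 23.2% of Cp in replicate 1 and 40.6% in replicate 2.

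Most of the ferritin, ferroportin and receptor RNA was in transcripts that hold an iron-responsive element. By TPM the share was 96.7% ± 1.25 for Fth1, 93.3% ± 2.38 for Ftl1, 88.3% ± 9.42 for Slc40a1 and 65.9% ± 4.15 for Tfrc. By read-based TPM the shares were 99.5% ± 0.136, 87.3% ± 3.35, 96.2% ± 5.32 and 72.3% ± 1.05 in the same order. By expected counts they were 98.01% ± 0.198, 95.1% ± 1.37, 98.8% ± 0.806 and 87.8% ± 0.0504. Tfrc had the lowest of the 4 shares by each of these measures. All these shares include retained-intron models of Fth1, Slc40a1 and Tfrc, and a model of Ftl1 marked for nonsense-mediated decay. By alignment-based TPM, the leading coding model with the element held less: 96.5% for Fth1, 92.0% for Ftl1, 77.4% for Slc40a1 and 59.8% for Tfrc.

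The remainder of Tfrc was mostly in a shorter model. Tfrc-201, the full model of 4890 bases with all 4 elements, held 59.8% ± 5.34 of the TPM. Tfrc-204, a retained-intron model that also holds them, had 6.05% ± 1.19. Tfrc-202, a coding model of 1860 bases with an earlier stop codon and no element, held 20.95% ± 2.68, and Tfrc-205, a retained-intron model, 9.08% ± 3.40. Between Tfrc-201 and Tfrc-202, a pair also chosen after its values were seen, Tfrc-201 took 73.6% in replicate 1 and 74.6% in replicate 2; by read-based TPM it took 80.4% ± 1.23.

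**Figure D4:**
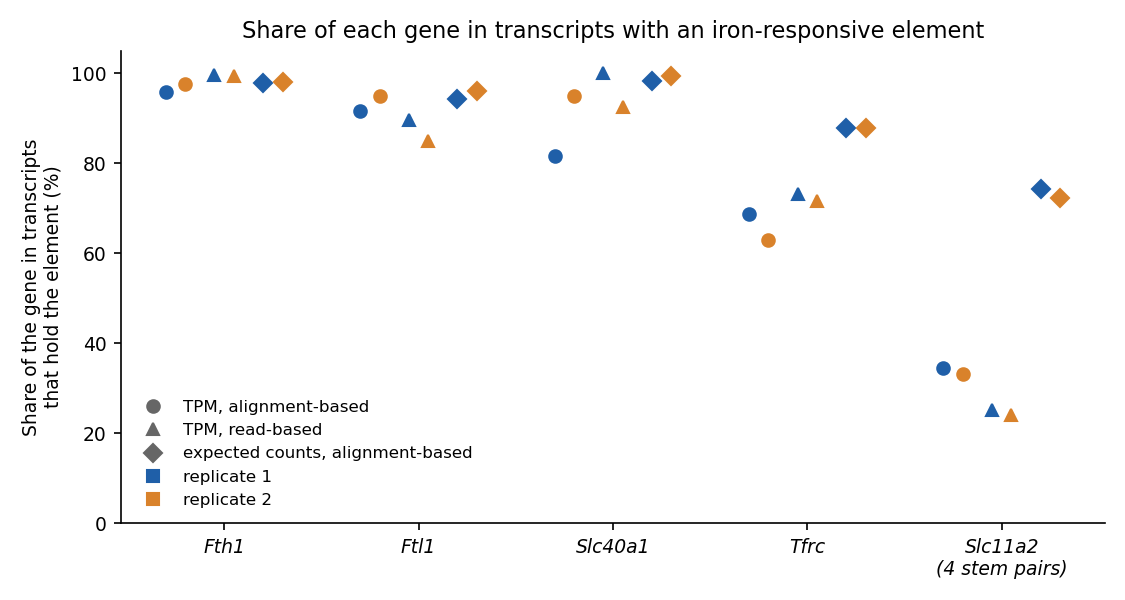
Share of each gene (%) in transcripts that hold an iron-responsive element, in replicate 1 (blue) and replicate 2 (orange), by alignment-based TPM (circles), read-based TPM (triangles) and expected counts (diamonds). Slc11a2 is drawn with 4 of 5 stem pairs and spans from about 24% of read-based TPM to 74% of expected counts; the other 4 genes lie above 60%.

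Beside the 9 genes, 71 other genes of iron handling were listed in 7 groups, of which 56 had at least 1 TPM in both libraries. Of the 61 that averaged at least 10 counts, 0 had an interval beyond 2-fold; 5 were on the higher side in replicate 1 (6.91% of all genes tested) and 6 in replicate 2 (8.17%), shares near those of all genes, and the median log2 ratio was -0.01, against 0.0011 for all genes tested.

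Of 15 genes of uptake, reduction and other import, 8 were detected. Slc22a17, a receptor for lipocalin 2, had 271 ± 9.88 TPM, the endocytic receptor Lrp1 153 ± 0.262 TPM, and the lysosomal channel Mcoln1 40.5 ± 0.856 TPM. Steap4, a metalloreductase, was lowest, with 0.05 TPM in replicate 1 and 0.04 TPM in replicate 2. Lrp1 was the 1 gene of the group on the higher side in replicate 2.

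Among other export genes, App, the amyloid precursor protein, which has been linked to ferroportin at the membrane, had 625 ± 28.9 TPM. Heph, the membrane ferroxidase hephaestin, had 1.76 ± 0.0141 TPM, and its relative Hephl1 had 0 counts in both libraries. A count of 0 allows up to 3 counts, which for a transcript of 1 kb is 0.163 TPM in replicate 1 and 0.152 TPM in replicate 2.

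Of 7 genes of storage, chaperones and ferritin turnover, 6 were detected. The iron chaperones of the poly(rC)-binding family, which deliver iron to ferritin, led them: Pcbp2 had 221 ± 12.4 TPM, Pcbp4 91.0 ± 3.79 TPM and Pcbp1 76.8 ± 3.39 TPM. Ftmt, the mitochondrial ferritin, had 0 counts in both libraries. Pcbp2 was on the higher side in replicate 1, with a log2 ratio of 0.08, and Herc2 in replicate 2, with -0.05.

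Of 9 systemic and cellular regulators, 5 were detected. The hypoxia factor Epas1 had 41.4 ± 0.134 TPM, the ubiquitin ligase subunit Fbxl5, which senses iron and targets Ireb2, 37.3 ± 1.17 TPM, and Neo1, a co-receptor for bone morphogenetic proteins, 34.2 ± 0.700 TPM. The liver hormone gene Hamp had 0.16 TPM in replicate 1 and 0 in replicate 2, on 1 count in all, and Erfe had 0.09 and 0.07 TPM in replicates 1 and 2. Bmp6, a ligand that induces Hamp in liver, was on the higher side in replicate 1, with 5.38 TPM in replicate 1 and 3.79 TPM in replicate 2.

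Of the genes of mitochondrial iron and iron-sulfur clusters, 16 of 16 were detected. The assembly proteins Isca1 and Iscu had 67.4 ± 0.467 and 54.4 ± 1.153 TPM. Of the 16, 0 were on the higher side in replicate 1 (6.91% of all genes tested) and 3 in replicate 2 (8.17%). Among the latter were Nfs1 and Isca1, with log2 ratios of -0.19 and -0.08.

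Of 16 genes of heme synthesis, transport and breakdown, 14 were detected. Slc48a1, a heme transporter of the lysosome, had 67.2 ± 0.297 TPM, the first enzyme of heme synthesis Alas1 60.4 ± 2.10 TPM, and the constitutive heme oxygenase Hmox2 33.2 ± 0.962 TPM. Hpx, hemopexin, was lowest, with 0.28 TPM in replicate 1 and 0.13 TPM in replicate 2. Slc48a1 was on the higher side in replicate 2.

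All 5 genes of the ferroptosis group were detected, with Gpx4, the lipid peroxide reductase, at 221 ± 5.996 TPM. Slc3a2 had 67.1 ± 8.08 TPM, Acsl4 28.7 ± 2.18 TPM and Aifm2, the lowest, 3.99 TPM in replicate 1 and 4.42 TPM in replicate 2. Slc3a2, Slc7a11 and Acsl4 were on the higher side in replicate 1 (6.91% of all genes tested), with log2 ratios of 0.13, 0.13 and 0.08. The median size of the log2 ratio over all genes tested was 0.09. Tfrc, counted with the 9 genes and not here, had 0.17.

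**Figure D5:**
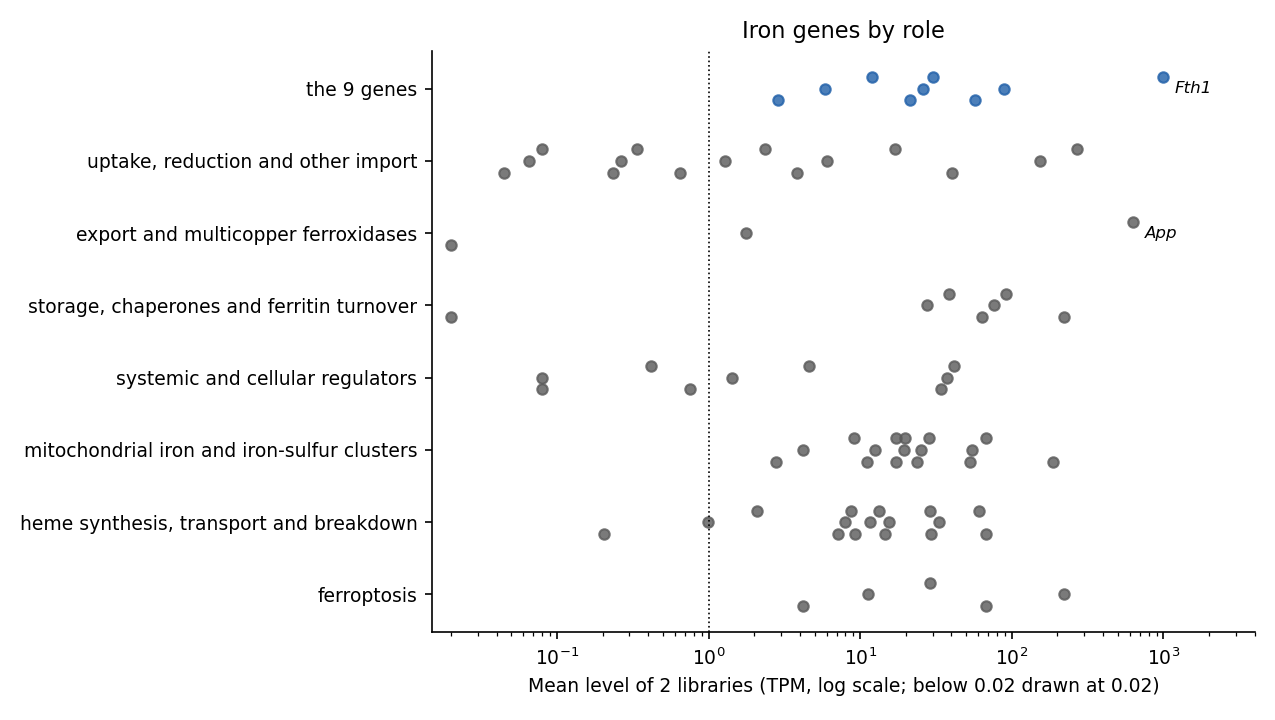
Mean level over the 2 libraries (TPM, log axis) of the 9 genes (blue) and of the 71 other iron genes by group (grey), with Fth1 and App named; the dotted line marks 1 TPM, and means below 0.02 TPM are drawn at 0.02. Of the genes shown, Fth1 at 991 TPM is the highest, followed by App at 625 TPM.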

How the data were processed

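Per the labels, the series holds 2 libraries of 1 group. Expected counts and TPM per gene and transcript, and the percent of a gene in each transcript, were deposited in alignment-based tables; a further deposited table, called read-based here, gives estimated counts and TPM per transcript from reads and an index. Assembly mm10 and GENCODE M21 are per the file headers and file lists. Aligner and quantifier: not given in the sources used here. The deposited bounds of transcript TPM were not used. The reference is that of C57BL/6J, so reads from CAST/EiJ alleles may be counted less well, which was not tested.

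The libraries carried 31196858 (replicate 1) and 32292150 (replicate 2) expected counts. Counts were rounded. TMM scaling (edgeR 4.0.16 under R 4.3.3) used genes averaging at least 10 counts, and the log2 ratio used a prior count of 0.5 and scipy 1.17.1 for the intervals. Reads were not collapsed by molecular identifiers as far as the sources say, so PCR copies are not independent molecules, and each interval or floor covers counting error alone. Shares per transcript were recomputed from TPM and counts. Copies were transcripts with at least 98% identity over 80% of the shorter one (blastn 2.17.0). This rule also takes in Gm20425, which overlaps Trf at the same locus. The interval rule and the element search were tested on simulated data. Alternatives were DESeq2 1.42.0 size factors, other scalings, filters, interval levels, tables and left-out replicates.

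The 9 genes and all lists were chosen with earlier results of these data known. Named beside the 9 were the 3 highest, the lowest and every called gene of each iron list, the 2 highest and the lowest of a marker list that bears on a result, copies averaging at least 10 counts, and transcripts with at least 5% of a gene; other genes were named where they were on 1 side of equality, after their values were seen. A few results that this rule selects are left unreported. Protein sequences were not used here.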

Additional observations from a re-analysis of the deposited data

How the results depend on the processing

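The interval lay beyond 2-fold for 0 of the 9 genes under all 10 alternatives tried, a 1.5-fold limit included. The number of genes on 1 side of equality stayed at 4 to 6 under the 4 other scalings, both count filters, the read-based counts and the added copies, and was 3 with a 99% interval. The median level of the 9 genes, 26.1 TPM, was 40.9 TPM in the read-based tables, 57.5 TPM over nuclear coding genes and 53.8 TPM over those genes in the read-based tables. The Fth1 to Ftl1 ratio of 11.2 was 11.3 in the read-based tables and 5.87 with copies added, where the light chain gains the reads of its copies. The Aco1 to Ireb2 ratio of 0.554 was 0.637 in the read-based tables; the cause was not tested. Without each replicate in turn the median level ranged between 25.7 and 26.55 TPM and the 2 ratios between 11.1 and 11.3 and between 0.549 and 0.559. The gene order kept 7 of 9 places and the leading transcripts 7 of 9 in the read-based tables. At 4 of 5 stem pairs 4 genes still held over 50% of their level in transcripts with the element. Of the 71 other iron genes, 59 were detected at 0.5 TPM, 46 at 5 TPM and 59 in the read-based tables. At 95% identity over 50%, an alternative chosen after seeing the data, 3 genes instead of 2 had a copy averaging at least 10 counts. For Trf that copy is the overlapping gene Gm20425. Of the 6 genes on 1 side of equality, Fth1, Tfrc, Slc40a1 and Cp stayed there under every scaling, prior count, table and added copies tried. The interval of Ftl1 came to hold equality under 4 of these settings and that of Trf under 2. Ireb2 moved to 1 side, higher in replicate 1, with total counts. The 99% interval is not among these settings, and it left 3 genes on 1 side, so those first 4 did not all stay there. No paired analysis was possible because the study holds 1 group and no groups share replicate numbers. Depth limits Slc40a1 most, with 157 counts in replicate 1 and 205 in replicate 2.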
